A study of Mus musculus with 6 samples.

Results

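The 10 genes described here belong to the WNT pathway. They are the ligand *Wnt5a*, the secreted inhibitors *Dkk2*, *Dkk3*, *Sfrp1* and *Sfrp2*, the effector *Ctnnb1*, the TCF/LEF factors *Tcf7l1*, *Tcf7* and *Lef1*, and the feedback gene *Axin2*. The rule that chose them names symbols and uses no threshold on values, though it was written with earlier results of these data known, and all 10 were found among the 54331 genes of the deposited table. The question here was how targets and secreted inhibitors of the pathway stood when AKT, a kinase that acts on GSK3, was activated during iPSC induction. Of the 6 wells sequenced at 10 days postinfection (dpi), 3 belonged to the OSKA + 4OHT group and 3 to the OSKA − 4OHT group. All 6 wells were started from mouse embryonic fibroblasts (MEFs) of E13.5 male embryos of Oct4-EGFP transgenic mice on a mixed background of C57BL/6, DBA/2 and ICR. In both groups, retroviral vectors had delivered OSK (Oct4, Sox2 and Klf4) and AKT-MER, a myristoylated AKT fused with a modified estrogen receptor. From 3 dpi, 1 µM 4-hydroxytamoxifen (4OHT), the ligand of AKT-MER, or its vehicle was given. Several embryos had been mixed to make the MEFs, and cells infected together were replated, so the p-values measure the spread between wells, which may be technical. Cells given 4OHT without AKT-MER were not analysed here.

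In the canonical branch of the pathway, a WNT ligand binds a Frizzled receptor and an LRP co-receptor, the destruction complex with its kinase GSK3 no longer marks β-catenin for degradation, and β-catenin enters the nucleus and works with TCF/LEF factors. Secreted inhibitors act outside the cell, where SFRP proteins bind WNT ligands and DKK proteins bind the LRP co-receptors. AKT can phosphorylate and inhibit GSK3, and in pluripotent cells GSK3 inhibition and loss of the repressor encoded by *Tcf7l1* are both known to favor self-renewal.

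Levels are in TPM (transcripts out of 1000000), which is scaled by transcript length, so genes can be compared. Per well they are given in the order of replicates 1, 2 and 3, "without 4OHT" for the OSKA − 4OHT group and "with 4OHT" for the OSKA + 4OHT group. The test was limma-trend on log2(TPM + 0.5) for the 15382 genes whose mean reached 1 TPM, and a gene passed if its Benjamini-Hochberg corrected (adjusted) p was under 0.05. A log2 fold change is OSKA + 4OHT over OSKA − 4OHT on that scale, where the change of genes with few TPM comes out too small, and SE is its standard error. The TPM of each well adds up to 1000000, so read numbers are not kept. From the steps of low values in genes with a single transcript, 1 TPM of a transcript of 2000 bases was worth about 1.47 to 2.97 reads in a well, and the shallowest library had 0.497 of the depth of the deepest. Wells of one group correlated at 0.809 to 0.864 across genes, which are not independent replicates, and the lowest values involved OSKA − 4OHT replicate 3. With 3 wells against 3, an exact 2-sided permutation test of one gene cannot go below 0.1.

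In AKT-activated cells, *Tcf7l1* was 2.13-fold higher, and *Dkk2* and *Sfrp1* were at 0.429 and 0.515 of their level in the OSKA − 4OHT group. These 3 of the 10 genes passed the test. Among all tested genes, 3.52% passed as higher and 1.97% as lower (5.49% in either direction). With the replicate number as a block, 31 of all tested genes were higher and 16 lower, and 0 of the 10 passed. *Tcf7l1*, *Dkk2* and *Sfrp1* then had adjusted p = 0.0986, 0.0640 and 0.106 (limma). The groups did not overlap in 5 of the 10 genes, against 28.2% of all tested genes. All 3 OSKA + 4OHT wells were above all OSKA − 4OHT wells in 1 of the 10 genes (*Tcf7l1*; 18.1% of all tested genes) and below them in 4 (*Dkk2*, *Dkk3*, *Sfrp1* and *Wnt5a*; 10.0% of all tested genes). *Axin2*, *Lef1*, *Tcf7*, *Ctnnb1* and *Sfrp2* overlapped between the groups. The median log2 fold change of the 10 genes was -0.61, and that of all tested genes was 0.14. Relative to the latter, *Tcf7l1* was at 0.92, *Dkk2* at -1.36 and *Sfrp2*, which did not pass, at 0.85.

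By mean TPM the order in the OSKA − 4OHT group was *Ctnnb1*, *Dkk2*, *Sfrp1*, *Wnt5a*, *Dkk3*, *Tcf7l1*, *Sfrp2*, *Tcf7*, *Axin2* and *Lef1*, and the wells of neighbours overlapped from *Dkk3* on. In the OSKA + 4OHT group it was *Ctnnb1*, *Dkk2*, *Tcf7l1*, *Sfrp1*, *Sfrp2*, *Wnt5a*, *Dkk3*, *Tcf7*, *Axin2* and *Lef1*, with overlap between *Sfrp1*, *Sfrp2* and *Wnt5a*, between *Dkk3* and *Tcf7*, and between *Axin2* and *Lef1*.

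**Figure D1:**
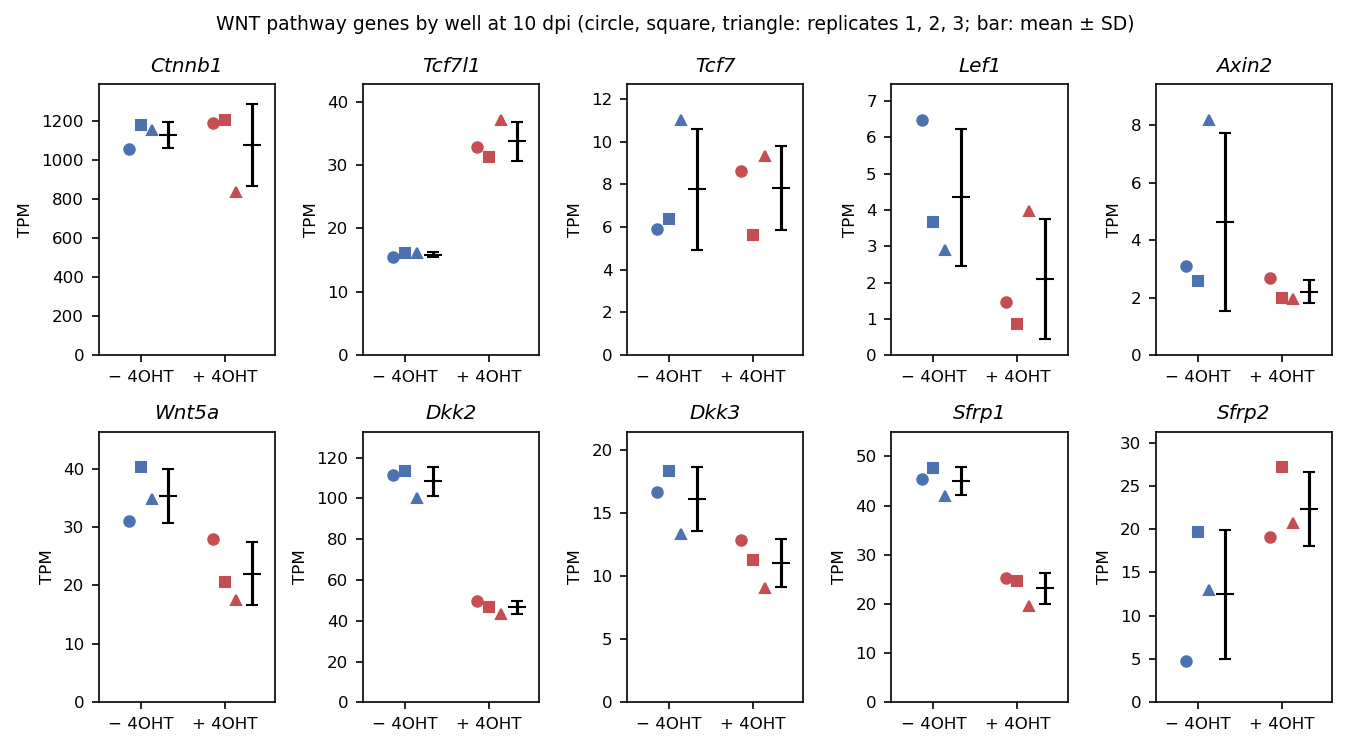
TPM of the 10 genes in each well at 10 dpi. Each panel has its own linear axis from 0, circles, squares and triangles are replicates 1, 2 and 3, blue is OSKA − 4OHT, red is OSKA + 4OHT, and the bar gives mean ± SD (n = 3). The groups are apart in *Tcf7l1*, *Wnt5a*, *Dkk2*, *Dkk3* and *Sfrp1*, and single wells lead the OSKA − 4OHT spread of *Axin2* (8.19 TPM) and *Tcf7* (11.02 TPM).

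*Ctnnb1* encodes β-catenin, which serves both the pathway and cell junctions. It lies on GRCm38 at chr9:120929216-120960507 (ENSMUSG00000006932). It had 1056, 1182 and 1156 TPM without 4OHT and 1190, 1208 and 835 TPM with 4OHT. Apart from the low OSKA + 4OHT replicate 3, the wells lay close together, and the groups overlapped. *Ctnnb1* was the highest of the 10 genes, above 99.5% of all tested genes or level with them. The log2 fold change was -0.089 (SE 0.161, 95% interval -0.48 to 0.30, adjusted p = 0.791, limma-trend with Benjamini-Hochberg correction), and without OSKA + 4OHT replicate 3 it was 0.085. These are transcript levels, and the amount of β-catenin protein was not measured here.

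*Tcf7l1*, which encodes the TCF/LEF factor best known as a repressor of WNT targets, rose. The gene lies at chr6:72626378-72789254 (ENSMUSG00000055799). It had 15.4, 16.1 and 16.1 TPM without 4OHT and 32.9, 31.2 and 37.1 TPM with 4OHT. All OSKA + 4OHT wells were high, and no well of one group came near the other. Mean levels were 15.9 ± 0.394 without and 33.7 ± 3.04 TPM with 4OHT (SD, n = 3 each), with a log2 fold change of 1.06 (SE 0.156, 95% interval 0.69 to 1.44, adjusted p = 0.0176, limma-trend with Benjamini-Hochberg correction). With any 1 of the 6 wells left out, the log2 fold change was 0.99 to 1.12 and the adjusted p-value, from 0.05004 to 0.0784, was no longer under 0.05.

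*Tcf7*, on chr11:52252371-52283014 (ENSMUSG00000000782), encodes a TCF factor that is also counted among the WNT targets. Its levels were 5.89, 6.39 and 11.02 TPM without 4OHT and 8.61, 5.61 and 9.30 TPM with 4OHT. The groups overlapped, with the highest well in one group and the lowest in the other. The fitted log2 fold change was 0.035 (95% interval -0.76 to 0.83, adjusted p = 0.968, limma-trend with Benjamini-Hochberg correction), and its sign changed with the scaling of the wells, to -0.060 and -0.14. With 1 well left out it ran from -0.12 (without OSKA − 4OHT replicate 1) to 0.30 (without OSKA − 4OHT replicate 3).

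*Lef1*, on chr3:131110471-131224356 (ENSMUSG00000027985), encodes a further TCF/LEF activator and WNT target. It had 6.49, 3.67 and 2.89 TPM without 4OHT and 1.45, 0.854 and 3.96 TPM with 4OHT. OSKA + 4OHT replicates 1 and 2 were the lowest of the 6 wells, but replicate 3 lay above OSKA − 4OHT replicates 2 and 3. The log2 fold change was -1.02 (SE 0.554, 95% interval -2.36 to 0.31, adjusted p = 0.353, limma-trend with Benjamini-Hochberg correction), -0.65 without OSKA + 4OHT replicate 2 and -1.51 without OSKA + 4OHT replicate 3. The lowest well was below the 1.12 TPM that 3 reads would give there for a transcript of 2000 bases, so *Lef1* was at the edge of what this depth can measure.

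The means of the TCF/LEF genes had another order in each group. Together with *Tcf7l2*, the fourth gene of the family (20.8 ± 7.26 and 20.9 ± 4.58 TPM in the OSKA − 4OHT and OSKA + 4OHT groups, SD, n = 3 each), they summed to 45.5, 55.2 and 45.5 TPM without 4OHT and to 60.0, 57.3 and 76.3 TPM with 4OHT. *Tcf7l1* made up 33.9%, 29.1% and 35.4% of this sum without 4OHT and 54.8%, 54.5% and 48.6% with 4OHT. *Tcf7l2* held the highest mean of the family in the OSKA − 4OHT group and *Tcf7l1* in the OSKA + 4OHT group, although in the OSKA − 4OHT group the *Tcf7l2* wells (17.7, 29.1 and 15.5 TPM) overlapped those of *Tcf7l1*. Of the 18 listed β-catenin partners and nuclear factors, 17 were matched and tested. Of these, 1 passed as higher, *Tcf7l1*, and 0 as lower (3.52% and 1.97% of all tested genes), with a list median of -0.089.

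*Axin2*, on chr11:108920349-108950783 (ENSMUSG00000000142), encodes a scaffold of the destruction complex and is a feedback target used widely as a readout of canonical WNT signaling. It had 3.09, 2.59 and 8.19 TPM without 4OHT and 2.69, 1.98 and 1.97 TPM with 4OHT. One well, OSKA − 4OHT replicate 3, was high, and the other 5 lay between 1.97 and 3.09 TPM. The fitted log2 fold change was -0.77 (SE 0.471, 95% interval -1.90 to 0.37, adjusted p = 0.412, limma-trend with Benjamini-Hochberg correction), and -0.31 without that well. The interval spans from 0.267-fold to 1.29-fold, so these wells do not tell such a fall from no change.

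The 250 bases before the annotated start of *Axin2* are shown in capitals where CG dinucleotides stand, because *Axin2* is the readout gene among the 10. They lie on the plus strand at chr11:108920099-108920348 in the RefSeq promoter table of GRCm38.p6.
Axin2: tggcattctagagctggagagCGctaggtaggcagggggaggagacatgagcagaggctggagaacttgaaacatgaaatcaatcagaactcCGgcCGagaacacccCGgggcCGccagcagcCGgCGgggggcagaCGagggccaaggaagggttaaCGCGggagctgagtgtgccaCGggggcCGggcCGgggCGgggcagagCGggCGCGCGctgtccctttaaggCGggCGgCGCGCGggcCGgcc
This window is 69.2% G or C with 24 CG dinucleotides, and 89.3% of the 32851 windows of the table have as many or fewer (median 6). It was searched on both strands for 4 forms of the TCF/LEF motif, which are CTTTG followed by AA, by AT, by TA or by TT and of which none contains another, and held 0 matches. The table held 12 windows for 7 of the 10 genes, and 1 of the 12, a window of *Lef1*, held a match. Of all windows, 14.8% did. A match is a string of letters, and a window without one says nothing about the factor.

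The listed targets of β-catenin included *Axin2*, *Lef1* and *Tcf7*, none of which passed. Of 21 listed genes, 14 were tested, and 1 passed as higher and 2 as lower (3.52% and 1.97% of all tested genes). The list median was -0.55, against 0.14 over all tested genes. Of the 14 log2 fold changes 10 were negative, against 6253 of the 15382 over all tested genes. *Ccn4*, a WNT-induced matricellular gene, fell from 68.5, 66.9 and 59.5 TPM without 4OHT to 16.7, 20.2 and 14.9 TPM with 4OHT (log2 fold change -1.89, SE 0.174, adjusted p = 0.00471, limma-trend with Benjamini-Hochberg correction). *Apcdd1*, a target that itself encodes a surface inhibitor of the pathway, rose from 47.0, 46.3 and 52.8 TPM to 163.9, 182.3 and 144.2 TPM (log2 fold change 1.73, SE 0.143, adjusted p = 0.00375 by the same test). Both groups of wells were far apart in these genes. The other gene that passed, *Myc*, chosen after its values were seen, fell from 41.2, 36.7 and 41.5 TPM to 17.8, 19.3 and 18.4 TPM (adjusted p = 0.0144, limma-trend with Benjamini-Hochberg correction, and from 0.0451 to 0.0699 with 1 well left out). *Ccnd1*, a cyclin gene of the list also chosen afterwards, overlapped between the groups at 361.5 ± 39.2 and 352.3 ± 50.2 TPM (SD, n = 3 each). The Brachyury gene *T* and *Cdx2*, targets in the early embryo, were listed at 0 in all 6 wells.

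**Figure D2:**
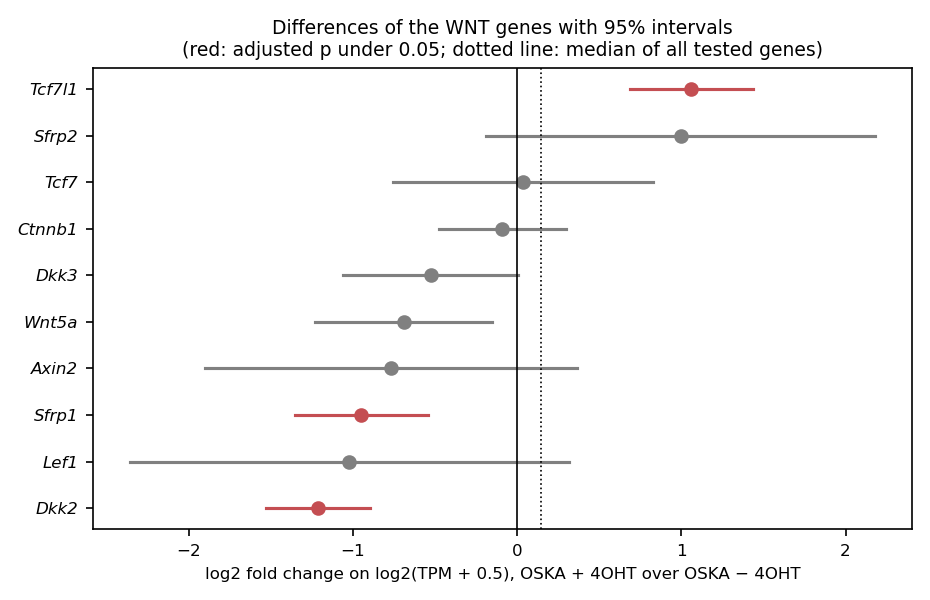
Log2 fold changes of the 10 genes with 95% intervals from limma-trend on log2(TPM + 0.5), ordered by value. Red marks the 3 genes with an adjusted p-value under 0.05, and the dotted line is the median of all tested genes (0.14). The intervals of *Lef1*, *Axin2* and *Sfrp2* are the widest, and that of *Dkk2* the narrowest.

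*Wnt5a*, on chr14:28504750-28527448 (ENSMUSG00000021994), encodes a ligand known mostly for signaling without β-catenin through ROR receptors. It had 31.1, 40.3 and 34.8 TPM without 4OHT and 28.0, 20.6 and 17.5 TPM with 4OHT. All OSKA + 4OHT wells were the lower ones, with OSKA + 4OHT replicate 1 close to OSKA − 4OHT replicate 1. Mean levels were 35.4 ± 4.62 without and 22.0 ± 5.40 TPM with 4OHT (SD, n = 3 each), and the log2 fold change of -0.69 (SE 0.224, 95% interval -1.23 to -0.15, unadjusted p = 0.0198) did not pass at an adjusted p of 0.144 (limma-trend, Benjamini-Hochberg). Of its ROR receptors, named after their values were seen, *Ror1* did not overlap at 5.77 ± 0.743 and 3.45 ± 0.574 TPM (SD, n = 3 each, adjusted p = 0.212, limma-trend with Benjamini-Hochberg correction). *Ror2* overlapped at 8.29 ± 1.16 and 10.3 ± 5.60 TPM (SD, n = 3 each).

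*Wnt5a* had the highest mean of the 19 ligand genes in both groups. Only 6 ligands reached the level for testing. Of these, 0 passed as higher and 1 as lower (3.52% and 1.97% of all tested genes), and the list median was -1.06. Without a mean-variance trend 3 of them were lower, and without OSKA + 4OHT replicate 1 the count was 0. At an unadjusted p-value under 0.05, 5 of these 6 were lower and 1, *Wnt16*, was higher (of all tested genes, 7.18% were lower and 14.1% higher at that level, 21.3% in all). The ligand that passed, *Wnt2*, which acts in the canonical branch, fell from 17.1, 19.7 and 15.9 TPM to 4.27, 5.66 and 3.85 TPM (log2 fold change -1.84, SE 0.226, adjusted p = 0.0110, limma-trend with Benjamini-Hochberg correction). Its groups were well apart, and the adjusted p-value was 0.0562 without OSKA + 4OHT replicate 1. *Wnt2* and *Wnt5a* together gave 72.4% ± 2.65 of all ligand TPM in the OSKA − 4OHT group and 60.0% ± 6.69 with 4OHT (SD, n = 3 each).

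*Dkk2*, on chr3:132085292-132180304 (ENSMUSG00000028031), encodes a secreted ligand of the LRP co-receptors that acts mostly as an inhibitor. It had the highest level of the 10 genes after *Ctnnb1*, and it fell. The wells had 111.5, 113.4 and 100.4 TPM without 4OHT and 49.7, 46.7 and 43.2 TPM with 4OHT. The wells of each group were close together and the groups far apart. Mean levels were 108.4 ± 6.98 without and 46.5 ± 3.24 TPM with 4OHT (SD, n = 3 each), with a log2 fold change of -1.21 (SE 0.132, 95% interval -1.53 to -0.89, adjusted p = 0.00744, limma-trend with Benjamini-Hochberg correction). *Dkk2* was the 1 gene of the 10 that passed in all 6 fits that left out a well, with adjusted p-values from 0.0263 to 0.0436.

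The 250 bases before its start are shown likewise, since *Dkk2* passed as lower and its 1 annotated transcript begins at the same base in both annotations. They lie on the plus strand at chr3:132085042-132085291 of GRCm38.p6, with CG dinucleotides in capitals.
Dkk2: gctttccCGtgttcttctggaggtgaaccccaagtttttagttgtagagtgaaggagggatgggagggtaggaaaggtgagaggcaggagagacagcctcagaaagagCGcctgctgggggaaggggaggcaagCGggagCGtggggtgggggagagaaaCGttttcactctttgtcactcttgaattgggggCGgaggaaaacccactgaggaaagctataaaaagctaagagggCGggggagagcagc
This window is 55.6% G or C and has 7 CG dinucleotides, against 24 in that of *Axin2* and a median of 6 over all windows. None of the TCF/LEF motif forms named above was found in it.

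*Sfrp1*, on chr8:23411502-23449632 (ENSMUSG00000031548), encodes a secreted protein with a Frizzled-like domain that binds WNT ligands. It fell as well, from 45.4, 47.6 and 42.0 TPM without 4OHT to 25.3, 24.7 and 19.5 TPM with 4OHT. All OSKA + 4OHT wells were low, without overlap. Mean levels were 45.0 ± 2.82 without and 23.2 ± 3.16 TPM with 4OHT (SD, n = 3 each), with a log2 fold change of -0.95 (SE 0.168, 95% interval -1.36 to -0.55, adjusted p = 0.0306, limma-trend with Benjamini-Hochberg correction). It passed in 0 of the 6 fits that lacked a well, where the adjusted p was 0.0674 to 0.101.

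*Dkk3*, on chr7:112116017-112159057 (ENSMUSG00000030772), is the divergent member of the DKK family, whose protein is not known to act on the LRP co-receptors as the others do. Its levels were 16.7, 18.4 and 13.4 TPM without 4OHT and 12.9, 11.3 and 9.09 TPM with 4OHT. The OSKA + 4OHT wells were the lower ones, but OSKA + 4OHT replicate 1 nearly met OSKA − 4OHT replicate 3. The log2 fold change was -0.53 (SE 0.221, 95% interval -1.06 to 0.0073, adjusted p = 0.240, limma-trend with Benjamini-Hochberg correction).

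*Sfrp2*, on chr3:83766321-83774316 (ENSMUSG00000027996), encodes a close relative of SFRP1, and its estimate had the opposite sign. It had 4.82, 19.7 and 13 TPM without 4OHT and 19.1, 27.2 and 20.7 TPM with 4OHT. OSKA − 4OHT replicate 1 was far lower than the rest, and OSKA − 4OHT replicate 2 lay within the OSKA + 4OHT wells. The fitted log2 fold change was 0.996 (SE 0.491, 95% interval -0.19 to 2.18, adjusted p = 0.310, limma-trend with Benjamini-Hochberg correction), and 0.45 without OSKA − 4OHT replicate 1.

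The 4 DKK and SFRP genes together had 178.3, 199.0 and 168.8 TPM without 4OHT and 106.9, 109.9 and 92.6 TPM with 4OHT. *Dkk2* supplied 59.7% ± 2.77 of this sum in the OSKA − 4OHT group and 45.2% ± 2.33 with 4OHT (SD, n = 3 each). The order of their means was *Dkk2*, *Sfrp1*, *Dkk3* and *Sfrp2* in the OSKA − 4OHT group and *Dkk2*, *Sfrp1*, *Sfrp2* and *Dkk3* in the OSKA + 4OHT group. In the OSKA − 4OHT group the wells of *Dkk3* and *Sfrp2* overlapped, as did those of *Sfrp1* and *Sfrp2* in the OSKA + 4OHT group.

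Over all 18 listed secreted and surface inhibitors, genes moved in both directions. Of the 10 that were tested, 3 rose and 2 fell (3.52% and 1.97% of all tested genes), and the list median was 0.60. The inhibitor with the largest rise was *Sostdc1*, a secreted antagonist of BMP and WNT signaling, with 20.9, 24.1 and 17.4 TPM without 4OHT and 91.4, 89.3 and 75.6 TPM with 4OHT. All OSKA + 4OHT wells were more than any OSKA − 4OHT well, the means were 4.11-fold apart, and the log2 fold change was 2.02 (SE 0.178, adjusted p = 0.00423, limma-trend with Benjamini-Hochberg correction). *Sfrp4*, a further SFRP gene chosen after its values were seen, rose from 19.7, 14.2 and 13.01 TPM to 46.5, 42.2 and 34.8 TPM (log2 fold change 1.38, adjusted p = 0.0232 by the same test, and 0.0312 to 0.0948 with 1 well left out). *Apcdd1*, given above, was the other that rose. *Dkk1*, an inhibitor named after its values were seen, was listed at 0 in 5 wells and at 0.30 TPM in OSKA + 4OHT replicate 3.

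The summed TPM of the 18 inhibitors was 296.6, 313.7 and 281.2 without 4OHT and 447.7, 467.0 and 379.8 with 4OHT. *Dkk2* and *Sfrp1* gave 51.6% ± 1.14 of it in the OSKA − 4OHT group and 16.2% ± 0.782 with 4OHT (SD, n = 3 each). *Apcdd1*, *Sostdc1* and *Sfrp4* gave 28.7% ± 1.496 and 67.2% ± 0.197 (SD, n = 3 each). These shares group genes by how they moved, so they only describe the wells, and no test result is given for them.

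**Figure D3:**
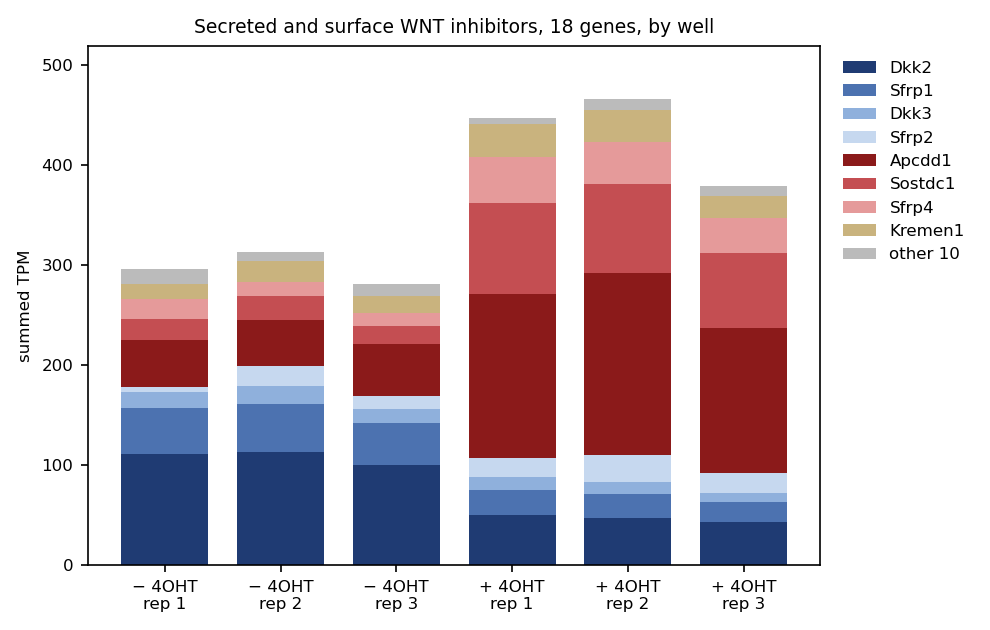
Stacked TPM of the 18 secreted and surface WNT inhibitor genes in each well, from 0 on a linear axis. Blue shades are the DKK and SFRP genes among the 10 described, red shades are *Apcdd1*, *Sostdc1* and *Sfrp4*, tan is *Kremen1* and grey the other 10 genes. The red part is smaller than the blue part in the OSKA − 4OHT wells and larger in the OSKA + 4OHT wells, where the whole bar is also higher.

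In the lists for WNT secretion, receptors, the R-spondin module and the destruction complex, *Lgr6* was the 1 gene that passed, against 5.49% of all tested genes. None of the 14 tested receptors and co-receptors passed limma-trend with Benjamini-Hochberg adjustment, although at an unadjusted p-value under 0.05 there were 1 higher and 5 lower (14.1% and 7.18% of all tested genes), and the list median was -0.23. Likewise 0 of 6 genes for WNT secretion passed (0 higher and 2 lower at an unadjusted p-value under 0.05 by limma-trend, list median -0.074). *Lgr6*, one of the R-spondin receptors, went from 34.7, 36.2 and 28.3 TPM to 19.0, 18.1 and 18.1 TPM and was the 1 of 5 tested genes of its list to pass (adjusted p = 0.0448, limma-trend with Benjamini-Hochberg correction). In the fits that lacked a well its adjusted p was 0.0606 to 0.146, while with median-ratio scaling, quantile scaling or a filter of 5 TPM 2 genes of the list were lower, and 0 without a trend or without a filter (*Lgr6* at an adjusted p of 0.0677 and 0.0597, limma). Of the 17 tested genes of the destruction complex, GSK3 and Dishevelled list, 0 passed (1 higher and 0 lower at an unadjusted p-value under 0.05 by limma-trend, list median -0.19).

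*Gsk3a* and *Gsk3b* encode the GSK3 kinases that AKT acts on. *Gsk3a* had 29.97, 27.6 and 28.8 TPM without 4OHT and 32.5, 41.0 and 30.8 TPM with 4OHT, and *Gsk3b* had 78.4, 42.0 and 56.6 TPM and 40.7, 69.6 and 44.0 TPM. Neither passed, with 95% intervals of the log2 fold change from -0.15 to 0.67 and from -0.92 to 0.54. *Akt1* had 749.3, 750.6 and 653.3 TPM without 4OHT and 621.4, 641.6 and 448.4 TPM with 4OHT (adjusted p = 0.286, limma-trend with Benjamini-Hochberg correction), and these values do not separate the gene from the transgene. Phosphorylation was not measured here.

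In the planar polarity branch, which works without β-catenin, 1 of 9 tested genes rose and 1 fell, with a list median of 0.0087. *Vangl1*, which encodes a core membrane protein of this branch, fell from 23.4, 27.7 and 29.2 TPM to 13.4, 14.6 and 13.4 TPM (log2 fold change -0.93, adjusted p = 0.0336, limma-trend with Benjamini-Hochberg correction). *Celsr2*, which encodes an adhesion receptor of the same branch, rose from 1.88, 1.95 and 3.35 TPM to 7.85, 19.0 and 8.61 TPM (log2 fold change 2.01, adjusted p = 0.0465 by the same test). Their groups did not overlap, but both lost the pass in all 6 fits without a well (adjusted p-values up to 0.118 and 0.127). *Celsr2* also lost it without a trend, without a filter, with a pseudocount of 2 TPM and with quantile scaling (adjusted p = 0.0615, 0.0833, 0.0579 and 0.0519, limma). Over the 127 genes of the WNT lists, each counted once, 91 were tested, 5 rose and 7 fell, and the median was -0.19. Without the 10 described genes these were 81 tested, 4 that rose and 5 that fell. Over all tested genes, 3.52% passed as higher and 1.97% as lower, and the median was 0.14.

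**Figure D4:**
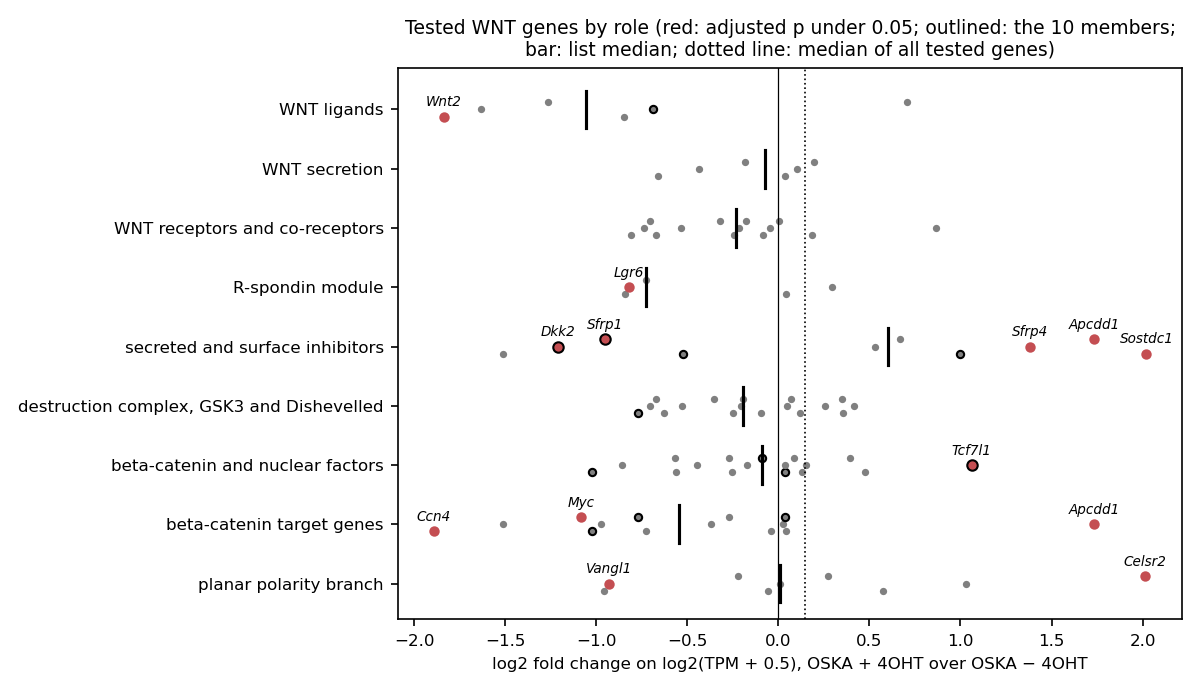
Log2 fold changes on log2(TPM + 0.5) of all tested WNT genes by role, a point per gene. Red marks an adjusted p-value under 0.05, black outlines mark the 10 genes described, bars are list medians and the dotted line is the median of all tested genes (0.14). The inhibitor, target and planar polarity lists hold genes that passed on both sides of 0, the inhibitors from *Dkk2* at -1.21 to *Sostdc1* at 2.02.

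The wells were mixtures, in which fewer cells of a type and less RNA per cell cannot be told apart, and marker genes of other cell states moved with the groups. All 11 fibroblast markers were tested, and they summed to 10030 to 11640 TPM without 4OHT and to 6620 to 7904 TPM with 4OHT. *Lum* and *Col3a1* rose (5.39-fold and 2.36-fold), and 3 fell. These were *Col1a2*, *Fn1* and *S100a4*, at 0.549, 0.532 and 0.436 of their level without 4OHT. The genes that rose or fell were named after their values were seen. Among all tested genes, 3.52% passed as higher and 1.97% as lower. The highest fibroblast marker, *Vim*, had 3374, 4553 and 3603 TPM without 4OHT and 2863, 3065 and 2075 TPM with 4OHT and did not pass (adjusted p = 0.163, limma-trend with Benjamini-Hochberg correction). The 6 smooth muscle markers summed to 1122 to 1263 TPM in the OSKA − 4OHT wells and to 177.9 to 252.4 TPM in the OSKA + 4OHT wells, 4 of 6 fell, and *Acta2* went from 568.4 to 703.3 TPM down to 100.8 to 136.1 TPM. The log2 fold change of *Acta2* was -2.49, farther from 0 than those of *Dkk2*, *Sfrp1* and *Wnt2*. The 8 epithelial markers summed to 38.4 to 86.9 TPM and to 168.5 to 192.0 TPM, and 3 of 7 tested rose, with *Epcam* at 14.6 to 23.9 TPM and 41.0 to 50.1 TPM. The 10 pluripotent cell markers summed to 7.45 to 16.8 TPM and to 64.7 to 72.9 TPM, and 4 of 8 tested rose. *Fbxo15*, their highest by the mean over all 6 wells, had 3.68 to 11.2 TPM and 12.1 to 15.4 TPM and did not pass. With 4OHT *Dppa5a*, which passed as higher and was named after its values were seen, lay above it at 16.4 to 25.7 TPM. *Dppa5a*, *Utf1*, *Dppa4* and *Lin28a* of this list were at 0 in all OSKA − 4OHT wells. The 10 macrophage markers summed to 168.5 to 202.5 TPM and to 111.5 to 129.9 TPM, and 1 of 10, *Lyz2*, fell. Of 5 endothelial markers 2 were tested and 0 passed limma-trend (1 higher at an unadjusted p-value under 0.05), with *Tek* at 12.8 to 15.7 TPM and 21.2 to 23.2 TPM. Of 4 keratinocyte markers 1 was tested, *Krt14*, at 4.56 to 12.4 TPM and 20.04 to 25.6 TPM, and 0 passed (1 higher at an unadjusted p-value under 0.05 by limma-trend). The part of these shifts in the values of *Tcf7l1*, *Dkk2* and *Sfrp1* was not tested.

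Genes that could share reads with the 10 were looked for. None of the transcripts of the 10 genes shared 200 bases at 95% identity with another gene, the longest shared stretch being 96 bases. Of the annotated genes that overlap them and have values, the highest was *Ulk4*, opposite *Ctnnb1*, at 1.36 to 7.45 TPM. *Gm26551*, on the same strand as *Tcf7*, had no value in any well.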

How the data were processed

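The authors sequenced stranded polyA libraries as single reads of 50 bases, trimmed them with Trim Galore and quantified them against mouse transcripts with Salmon, and they deposited TPM per gene and well. The versions, annotation release and strand setting are not given in the sources used here. The authors' own edgeR columns in the deposited table (log2 fold change, log2 average level, an F score and an unadjusted p-value) were not used.

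Genes were matched by Ensembl identifier to GENCODE M21 on GRCm38, which gave 54097 of 54331 a symbol. The rule for names took the 10 genes, *Gsk3a*, *Gsk3b* and *Akt1*, the largest rise and fall that passed in each of 9 WNT lists, and the highest gene of each of 7 marker lists. Highest means by the mean over all 6 wells. Within the OSKA + 4OHT group, the mean of *Krt8* was above that of *Epcam*, and that of *Dppa5a* above that of *Fbxo15*. The 10 genes and the lists were chosen with earlier results of these data known. Of 182 listed genes, 181 were matched.

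limma 3.58.1 in R 4.3.3 was run without a block. The reason was that the deviations of same-numbered wells from their group means correlated at 0.0837 or less across genes. Depth was read with Python 3.11.15, assuming fragments of 250 bases, and 37.6% to 41.8% of low values lay within 0.15 of a whole read (30% if evenly spread). No error bounds were computed for the depth. Similar transcripts were searched with BLAST 2.17.0. Alternatives were pseudocounts of 0.1 and 2 TPM, no filter, a filter of 5 TPM, median-ratio and quantile scaling, no trend, the replicate block and leaving out each well.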

Additional observations from a re-analysis of the deposited data

How the results depend on the processing

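*Dkk2* was lower in all alternatives and passed in all but the replicate block. With the replicate number as a block, 31 genes were higher and 16 lower, and 0 and 0 of the 10: *Tcf7l1*, *Dkk2* and *Sfrp1* kept 1.06, -1.21 and -0.95 with adjusted p = 0.0986, 0.0640 and 0.106 from limma. The block also ended the calls of *Ccn4* (0.0555), *Apcdd1* (0.0574), *Wnt2* (0.0640), *Sfrp4* (0.0737), *Myc* (0.0939), *Vangl1* (0.124), *Celsr2* (0.134) and *Lgr6* (0.1395, adjusted p from limma), and *Sostdc1* kept its call (0.04994). The cause was not tested. The deviations of same-numbered wells from their group means correlated at 0.0235, 0.0341 and 0.0837 across genes. In these deviations, OSKA + 4OHT replicate 1 correlated best with another number, and replicates 2 and 3 correlated best with their own. Each OSKA − 4OHT well correlated best with the OSKA + 4OHT well of its own number. All these values are low, so the block was not taken as a pairing. Without a trend, 1 of the 10 was lower, *Sfrp1* being at -0.95 with adjusted p = 0.0541 from limma.

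With 1 well left out, 112 to 318 genes were higher and 63 to 147 lower (fewest without OSKA + 4OHT replicate 1), and of the 10 genes 0 were higher and 1 was lower in every fit. *Tcf7l1* was at 0.99 to 1.12, *Sfrp1* at -1.02 to -0.83, *Tcf7* at -0.12 to 0.30 and *Ctnnb1* at -0.18 to 0.085. *Gsk3b* was at -0.43 to 0.035, the latter without OSKA − 4OHT replicate 1. These fits have fewer wells. *Tcf7* was at -0.060 with median-ratio and -0.14 with quantile scaling, which moved the median of all genes from 0.14 to 0.051 and -0.0047, and the share of passing genes that were higher from 64.1% to 51.6% and 49.7%. The remaining settings left the calls of the 10 genes as they were, but with a filter of 5 TPM *Axin2* and *Lef1* were not tested. The lowest *Lef1* well lay under the level of 3 reads for 2000 bases.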

Other observations

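Among the tested ligand genes, 3 that the text above does not name were lower in every OSKA + 4OHT well, and they were chosen after their values were seen. *Wnt10b* had 2.92, 1.86 and 2.74 TPM without 4OHT and 0.451, 0.364 and 0.570 TPM with 4OHT, where it lay under the level that 3 reads would give a transcript of 2000 bases. *Wnt7a* had 3.69, 4.00 and 2.70 TPM and 1.22, 1.20 and 0.991 TPM, of which the last was under that level too. *Wnt9a* had 6.65, 9.88 and 5.89 TPM and 3.25, 4.95 and 3.495 TPM. None of them passed (adjusted p = 0.114, 0.110 and 0.177, limma-trend with Benjamini-Hochberg correction), but *Wnt10b* and *Wnt7a* did without a trend (adjusted p = 0.0221 and 0.0341, limma). Of the tested ligands, *Wnt16* was the 1 with a positive log2 fold change, at 6.16, 4.03 and 4.65 TPM and 7.55, 8.36 and 8.99 TPM (adjusted p = 0.165, limma-trend with Benjamini-Hochberg correction). *Wnt11*, too low to be tested, was also higher in every OSKA + 4OHT well, at 0, 0.324 and 0.336 TPM and 1.28, 0.658 and 1.25 TPM. All of its wells except OSKA + 4OHT replicate 1 lay under the level of 3 reads for 2000 bases.

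*Rspo3*, which encodes a secreted amplifier of WNT signaling, had 14.4, 13.6 and 14.9 TPM without 4OHT and 8.46, 7.70 and 7.14 TPM with 4OHT. Its adjusted p was 0.0526 (limma-trend with Benjamini-Hochberg correction), and over the alternatives that kept all wells it was 0.0259 to 0.158. Further target genes were also chosen after their values were seen. *Notum*, which encodes an enzyme that inactivates WNT ligands, had 7.82, 4.13 and 9.30 TPM and 1.55, 3.27 and 1.61 TPM, *Lgr5* had 8.07, 7.04 and 12.9 TPM and 7.12, 3.54 and 5.70 TPM, and *Znrf3*, which encodes a ubiquitin ligase that removes Frizzled receptors, had 2.31, 1.86 and 3.22 TPM and 2.57, 2.29 and 2.61 TPM. None of these 3 passed (adjusted p = 0.103, 0.2995 and 0.966, limma-trend with Benjamini-Hochberg correction). The whole target list is counted above.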
